A study of Mus musculus with 16 samples.

Results

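Gene deserts are long stretches of a chromosome without a protein-coding gene, and 7415 of the 82188 accessible regions (peaks) measured here, or 9.02%, lay in them. A peak was counted as a gene-desert peak where its middle was more than 50 kb from the span of every protein-coding gene in the RefSeq annotation of the mouse build mm10, a rule that uses position and no measured value. Accessibility was measured with Omni-ATAC, a method that reads where a transposase could cut and tag open DNA, in 16 libraries of spleen cells from C57BL/6 mice 8 to 10 weeks old. The 4 groups of 4 libraries were Smarca4+/- cells labelled CC (HET CC), Smarca4+/+ cells labelled CC (WT CC), Smarca4+/- cells labelled CB (HET CB) and Smarca4+/+ cells labelled CB (WT CB). The series describes germinal center B cells of Smarca4 knockout and WT mice, and the abbreviations are read here as centrocyte (CC) and centroblast (CB). The labels give no sort gate, no immunization and no description of the Smarca4 allele or of the cells that carry it. They do not state whether each replicate is its own animal, and the p-values therefore cover only the spread among these libraries, part or all of which may be technical.

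Distal open regions of this kind can hold enhancers, which act on genes from afar, and sites where chromosome loops are anchored. Centroblasts divide and mutate their antibody genes in the dark zone of the germinal center, and centrocytes are selected in its light zone. BRG1, the product of Smarca4, is one of the alternative ATPases of the BAF complex, which moves and removes nucleosomes at enhancers. A desert is named here by the coding genes on its left and right, as in Prl5a1/Sox4, and these genes are neighbours that were not shown to be its targets.

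The peaks fell into 1262 deserts, of which 359 held 1 peak and 219 held at least 10. The median distance to the nearest coding gene was 107 kb, with quartiles of 70.36 and 186.6 kb and a maximum of 1812.1 kb. The spans of antigen receptor loci held 143 of the peaks, 84 of them in Igk and 28 in Igh, and the spans of other non-coding genes held 1964. The other 5308 lay outside any annotated gene, and 1427 were more than 50 kb from a gene of any kind.

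No genome sequence was used here, but RefSeq promoter windows of GRCm38.p6, from 250 bases before to 50 after a gene start, overlapped 185 of the gene-desert peaks (213 windows of 186 genes). Of these 185 peaks, 87 were more accessible in CC and 32 in CB among HET libraries, and 87 and 30 among WT libraries, or 47.0% and 17.3% in HET and 47.0% and 16.2% in WT. Of all 7415 gene-desert peaks, 48.6% were higher and 21.3% lower in CC in HET and 45.3% and 22.3% in WT, and of all 82188 peaks 30.8% and 28.1% in HET and 30.2% and 27.7% in WT. The windows were searched on both strands for 8 short motifs. GAGGAAGT, a PU.1-like ETS motif that includes the ETS core GGAA, stood in 8.45% of the 213 windows, in 3.2% of all 32851 windows and in 3.33% of those of non-coding genes. The share was 10.3% for AACCACA (RUNX), against 5.27% in all and 6.29% in non-coding windows, and 10.8% for TTTGCAT (the octamer of POU factors), against 4.63% and 5.35%. It was 8.92% for TGANTCA (AP-1), above the 7.81% in all windows and below the 9.31% in non-coding ones. It was 77% for CANNTG (E box), likewise between the 72.3% in all windows and the 78.4% in non-coding ones, and 98.1% for GGAA alone, against 96% and 96.4%. Of 2 pieces of the CTCF motif, AGGGGGC stood in 5.63%, against 10.6% of all and 6.39% of non-coding windows, and AGGTGGC in 6.1%, against 6.15% and 5.99%. The median GC content was 49.33% in these windows and 52.67% in all windows. A match describes letters and shows no binding. The 5 windows printed here were chosen after values were seen, from 13 that held an AP-1, PU.1-like, RUNX, octamer or CTCF motif, shared at least 150 bases with their peak and lay on a peak above the median level that was called in the same direction, with CC and CB libraries apart, in both genotypes. Windows on part of the genome were left out before this choice and are not among the 13. Within the 13, the windows printed are the 3 with the largest rise in CC in WT and the only 2 that were less accessible in CC. Capitals mark the motifs listed for this choice. All lie on the plus strand and wholly within their peak: Gm38397 at chr13:110903249-110903548 (peak_62112), Gm41331 at chr15:60141576-60141875 (peak_66825), Gm19585 at chr17:52149039-52149338 (peak_73752), Gm26579 at chr10:116674341-116674640 (peak_48783) and Gm46165 at chr1:154103613-154103912 (peak_3814).
Gm38397: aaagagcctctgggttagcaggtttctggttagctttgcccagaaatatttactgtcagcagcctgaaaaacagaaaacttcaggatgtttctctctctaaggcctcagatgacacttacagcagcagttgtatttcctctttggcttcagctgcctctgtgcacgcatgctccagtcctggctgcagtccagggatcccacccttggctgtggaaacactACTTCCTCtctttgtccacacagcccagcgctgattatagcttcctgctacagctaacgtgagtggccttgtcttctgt
Gm41331: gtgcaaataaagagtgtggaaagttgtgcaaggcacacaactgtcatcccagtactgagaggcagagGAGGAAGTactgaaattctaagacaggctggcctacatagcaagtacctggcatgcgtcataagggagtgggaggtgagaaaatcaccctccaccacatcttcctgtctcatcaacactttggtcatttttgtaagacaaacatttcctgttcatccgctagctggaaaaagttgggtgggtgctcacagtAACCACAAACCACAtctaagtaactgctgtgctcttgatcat
Gm19585: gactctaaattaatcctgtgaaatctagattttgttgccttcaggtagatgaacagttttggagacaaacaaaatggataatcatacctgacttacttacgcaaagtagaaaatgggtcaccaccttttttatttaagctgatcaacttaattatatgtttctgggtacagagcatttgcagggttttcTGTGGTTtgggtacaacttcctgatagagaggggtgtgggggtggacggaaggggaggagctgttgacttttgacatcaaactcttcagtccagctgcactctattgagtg
Gm26579: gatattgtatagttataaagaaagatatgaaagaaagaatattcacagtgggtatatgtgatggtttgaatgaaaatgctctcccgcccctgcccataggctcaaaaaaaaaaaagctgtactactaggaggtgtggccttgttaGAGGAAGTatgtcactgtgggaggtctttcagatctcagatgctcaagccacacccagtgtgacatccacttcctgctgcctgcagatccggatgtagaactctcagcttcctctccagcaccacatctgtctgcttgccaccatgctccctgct
Gm46165: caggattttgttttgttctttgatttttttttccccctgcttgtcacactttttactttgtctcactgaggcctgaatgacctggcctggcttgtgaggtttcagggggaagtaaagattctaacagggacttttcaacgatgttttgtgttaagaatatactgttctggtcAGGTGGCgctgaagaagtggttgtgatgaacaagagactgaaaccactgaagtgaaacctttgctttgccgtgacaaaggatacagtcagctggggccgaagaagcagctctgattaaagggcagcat
In CPM (counts per 1000000, with library totals scaled by the trimmed mean of M-values), the Gm38397 peak, which holds the PU.1-like motif and lies in the desert Plk2/Actbl2, stood at 7.382 ± 1.22 in HET CC, 8.994 ± 1.88 in WT CC, 0.6993 ± 0.199 in HET CB and 0.8144 ± 0.505 in WT CB (mean ± SD, n = 4 libraries each, as in all such values here). The Gm26579 peak, with the same motif, ran the other way, at 2.358 ± 1.13, 1.534 ± 1.13, 7.34 ± 0.463 and 6.406 ± 0.418 CPM in the same group order. The same motif thus stood in a peak that rose in CC by 3.38 on the log2 scale in HET and 3.46 in WT, and in one that fell by 1.62 and 2.04. The Gm41331 peak, with the PU.1-like motif and 2 RUNX motifs, and the Gm19585 peak, with 1 RUNX motif, rose by 2.72 and 1.85 in HET and by 2.31 and 2.07 in WT. The Gm46165 peak, with AGGTGGC, fell by 0.46 in HET and 0.71 in WT.

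Library totals were 5310327 to 7474760 counts in HET CC, 3494356 to 3750936 in WT CC, 38716281 to 51011923 in HET CB and 31696941 to 38798802 in WT CB, so depth and stage cannot be told apart. Every HET CC library was also deeper than every WT CC library, so depth and genotype cannot be told apart within CC. In CB the HET totals were mostly higher and overlapped the WT totals only narrowly. The median gene-desert peak held 26 to 35 counts per library in HET CC, 17 to 18 in WT CC, 134 to 162 in HET CB and 115 to 132 in WT CB. B cell marker loci were open in every library, with 6 of 6 holding peaks that summed to 846.1 to 904 CPM in HET CC, 891 to 1005.3 in WT CC, 1034.9 to 1042.1 in HET CB and 1075 to 1146.5 in WT CB. The 7 T cell marker loci summed to 126.8 to 178.9 CPM in HET CC, 182.8 to 233.1 in WT CC, 57.32 to 60.73 in HET CB and 61.23 to 66.82 in WT CB, and all 7 had the higher mean in CC in both genotypes. Among them Cd3e, a chain of the T cell receptor complex, averaged 3.351 CPM in HET CC, 3.728 in WT CC, 0.2829 in HET CB and 0.352 in WT CB. The 4 myeloid marker loci with a peak stood at 85.98 to 112.1, 90.88 to 111.9, 32.59 to 36.83 and 38.33 to 40.77 CPM in the same group order, and all 4 had the higher mean in CC. The NK cell markers Klrk1, Ncr1 and Gzmb, the myeloid marker Lyz2 and the erythroid and megakaryocyte markers Gata1, Hbb-bt and Pf4 had no peak. The NK cell marker Nkg7 did, at means of 13.38 CPM in HET CC, 15.06 in WT CC, 1.566 in HET CB and 1.757 in WT CB. Itga2b, of the erythroid and megakaryocyte list, also held peaks but had the lower mean in CC in both genotypes. It stood at 26.36 CPM in HET CC, 22.71 in WT CC, 43.92 in HET CB and 41.45 in WT CB. The 3 stromal and follicular dendritic cell loci with a peak summed to 70.31 to 101 CPM in HET CC, 96.68 to 115.4 in WT CC, 35.76 to 42.22 in HET CB and 43.61 to 46.6 in WT CB, and all 3 had the higher mean in CC. The 7 germinal center marker loci summed to 543.1 to 645.7 CPM in HET CC, 468.7 to 531.1 in WT CC, 784.4 to 801.9 in HET CB and 778.6 to 808.1 in WT CB. The Bcl6 locus alone of these 7 had the higher mean in CC, at 110 CPM in HET CC, 115.5 in WT CC, 81.39 in HET CB and 86.72 in WT CB. Within HET CC, replicates 2 and 4 stood apart from replicates 1 and 3, with 140.8 and 126.8 against 178.9 and 175.6 CPM at T cell loci and 606.2 and 645.7 against 545.2 and 543.1 CPM at germinal center loci. The part of these cell type markers in the results below was not tested. The 9 peaks of Smarca4 summed to 131.6 to 155 CPM in HET CC, 143.9 to 173.4 in WT CC, 167.1 to 172.2 in HET CB and 174.1 to 186.9 in WT CB, and neither HET difference passed the test (log2 -0.09, adjusted p = 0.4 in CC and -0.10, adjusted p = 0.426 in CB). They do not check the genotype, since the labels do not say what was deleted.

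Gene-desert peaks were among the weaker peaks of the table. Their median level was 4.153 CPM, with quartiles of 2.431 and 8.345, against 19.13 CPM for 17727 peaks within 1 kb of a gene end, 5.573 for 37322 peaks inside genes and 5.26 for 19724 other peaks within 50 kb of a gene. Of the gene-desert peaks, 33.9% stood in the lowest quintile of all peaks by mean CPM and 8.09% in the highest. Together they took 5.497%, 5.398%, 5.535% and 5.326% of the counts of the HET CC libraries and 5.433%, 5.592%, 5.546% and 5.659% of the WT CC libraries. The share was 5.175%, 4.926%, 5.088% and 4.939% in HET CB and 5.093%, 5.343%, 5.108% and 5.373% in WT CB. In HET every CC library exceeded every CB library, by 0.407 percentage points in the means (5.439% ± 0.0949 against 5.032% ± 0.12), and likewise in WT, by 0.328 points (5.557% ± 0.0951 against 5.229% ± 0.149). The HET means were lower than the WT means by 0.118 points in CC and 0.197 points in CB, and there the libraries overlapped. In these bulk libraries, a region open in fewer cells and a region with fewer insertions per cell cannot be told apart.

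**Figure D1:**
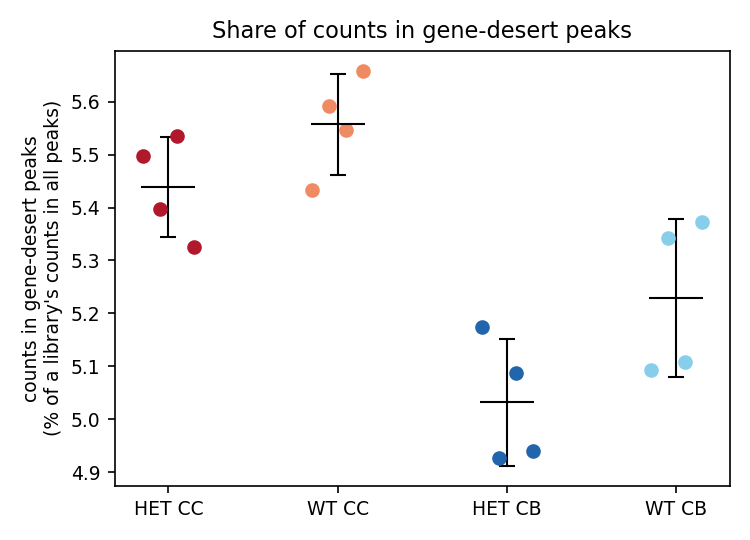
Share of each library's counts in the 7415 gene-desert peaks (y axis, percent, not starting at 0), by group (x axis). Points are libraries and bars are mean ± SD of 4; the CC libraries lie from 5.326% to 5.659%, and the CB libraries of the same genotype lie below them.

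Within each genotype, many more gene-desert peaks gained accessibility in CC than lost it. In HET, 3601 peaks (48.6%) were higher in CC than in CB and 1579 (21.3%) were lower (quasi-likelihood test of edgeR, p adjusted over all peaks by Benjamini-Hochberg and below 0.05, as for every call here), where the table as a whole had 30.8% higher and 28.1% lower. In WT, 3361 (45.3%) were higher and 1652 (22.3%) lower, against 30.2% and 27.7% of all peaks. The median log2 change was 0.387 in HET and 0.37 in WT, against 0.002 and -0.007 over all peaks. Called peaks were often far apart: the median size of a rise was 1.53 in HET and 1.67 in WT on the log2 scale, 411 peaks in HET and 348 in WT rose more than 8-fold, and the 4 CC libraries did not overlap the 4 CB libraries in 3087 of the 3601 and 2829 of the 3361 rises. Counts of peaks without overlap, here and below, rest on the values that gave the calls and are no separate support. The like share over all peaks of the table was not taken. Falls were smaller, with medians of -0.74 in HET and -0.98 in WT, and 403 and 805 of them passed 2-fold. The changes in HET and in WT, which share no library, had a Pearson correlation of 0.944 over the 7415 peaks, given as a description. The 3097 peaks higher in both made up 86% of the HET and 92.1% of the WT rises, the 1302 lower in both made up 82.5% of the HET and 78.8% of the WT falls, and 1 peak was called in opposite directions.

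The share that rose was greater beyond 100 kb from a coding gene than at 50 to 100 kb. The distance classes were not compared at like accessibility, with which the share that rose also differed, as given below. In HET, 44.0% rose and 23.1% fell at 50 to 100 kb from the nearest coding gene, 51.4% and 21.2% at 100 to 200 kb, 54.7% and 18.5% at 200 to 500 kb and 51.5% and 14.5% beyond 500 kb. In WT the same shares were 40.6% and 24.6%, 48.3% and 21.4%, 51.2% and 18.9%, and 50.1% and 18.1%. The 4 distance classes held 3424, 2343, 1283 and 365 peaks. At the limit itself there was no step: of 567 peaks at 50 to 55 kb, 40.0% rose and 23.5% fell in HET, and of 565 peaks at 45 to 50 kb, just outside the rule, 38.6% rose and 23.7% fell. In WT these shares were 37.0% and 24.3% inside and 36.3% and 24.8% outside. Peaks outside any annotated gene had a median log2 change of 0.459 in HET and 0.421 in WT, and those in non-coding genes 0.233 and 0.238. By chromosome, the median was below 0 on chromosome 19 alone (-0.155 in HET and -0.211 in WT) and was highest on chromosome 15 (0.755 and 0.664).

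**Figure D2:**
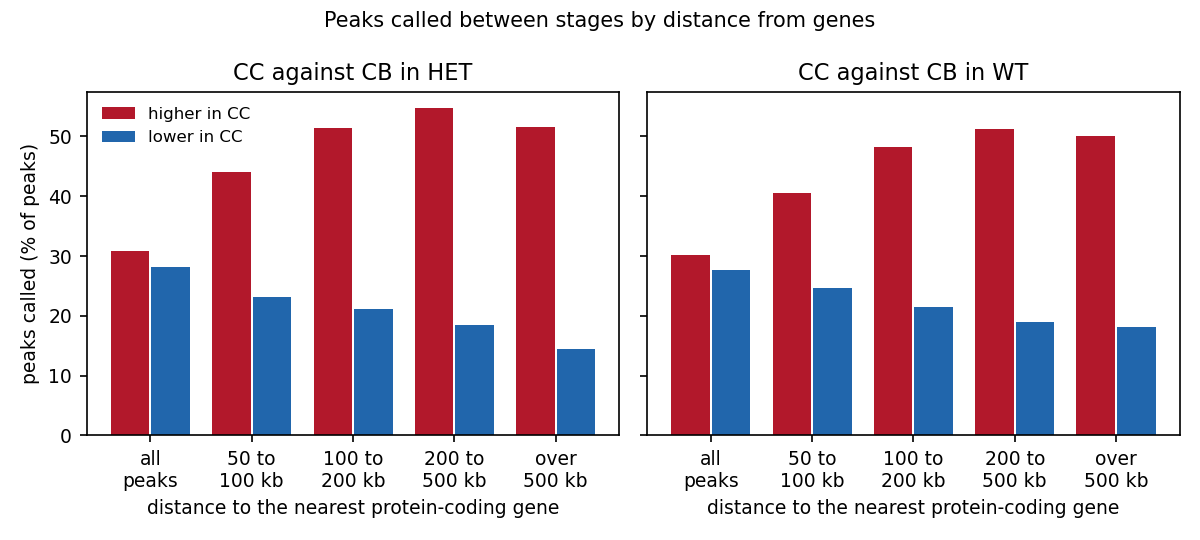
Percent of peaks called higher (red) and lower (blue) in CC than in CB (y axis) for all peaks and for gene-desert peaks by distance to the nearest coding gene (x axis, kb), with HET left and WT right. The share called higher is 44.0% in HET and 40.6% in WT at 50 to 100 kb and exceeds 50% in both beyond 200 kb.

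The rise was concentrated in weak peaks. Among the 2516 gene-desert peaks of the lowest quintile of all peaks by mean CPM (0.516 to 2.91 CPM), the median log2 change was 1.409 in HET and 1.438 in WT, and 67.0% rose and 7.03% fell in HET, against 62.6% and 7.15% in WT. In the next quintile, of 1797 peaks, the medians were 0.605 in HET and 0.504 in WT. The medians were near 0 in the middle quintile (0.052 and 0.03) and below 0 in the next one up (-0.15 and -0.212) and in the highest, of 600 peaks (-0.127 and -0.108). Weak peaks of other kinds had smaller positive medians. In the lowest quintile gene-end peaks stood at 0.568 in HET and 0.586 in WT, peaks inside genes at 0.49 and 0.451 and other intergenic peaks at 0.449 and 0.393. These medians were not tested against each other. When trends with accessibility were removed by loess offsets, the median of gene-desert peaks was 0.234 in HET and 0.244 in WT, and when all libraries were thinned to the depth of the smallest it was 0.294 and 0.289 over the 6389 peaks then tested.

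**Figure D3:**
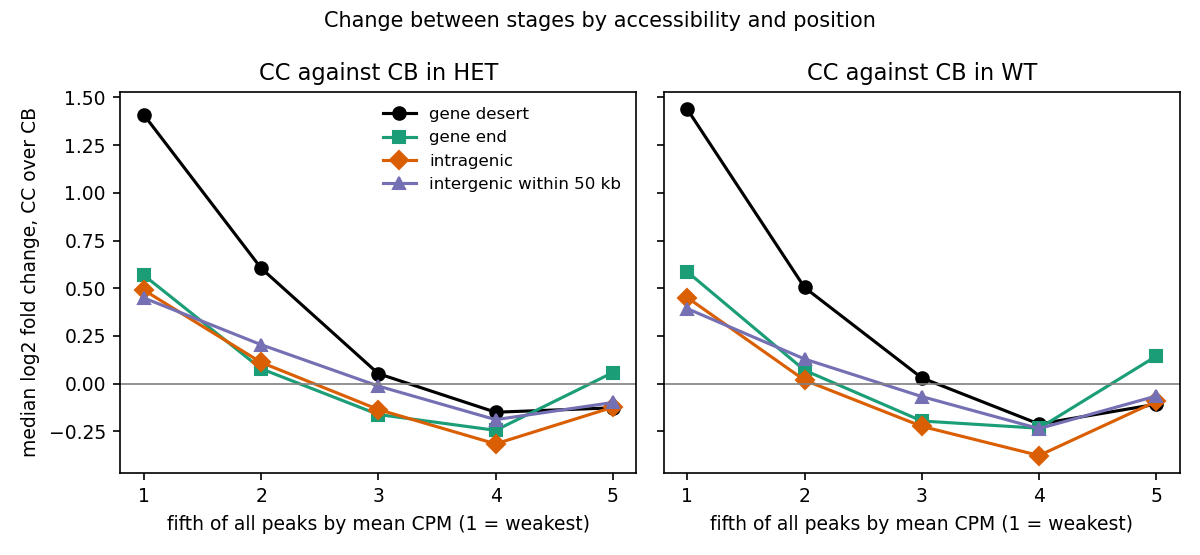
Median log2 change of CC against CB (y axis) by quintile of mean CPM over all peaks (x axis, lowest to highest), for gene-desert peaks and 3 other classes, with HET left and WT right. The gene-desert line starts at 1.409 in HET and 1.438 in WT, above the other classes, and lies below 0 in the highest quintiles.

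Summed over each desert, 695 of 1262 deserts (55.1%) were more accessible in CC and 241 (19.1%) less accessible in HET, against 31.8% and 32.3% of all genes and deserts tested together. In WT, 634 (50.2%) were higher and 281 (22.3%) lower, against 32.2% and 32.3%. Among deserts above the median level of deserts (10.89 CPM), Slco3a1/Sv2b (log2 3.43 in HET and 2.88 in WT), Cyp7b1/Armc1 (3.39 and 2.86), Gm52008/Bcl11b (2.98 and 3.1) and 4933412E24Rik/Lratd2 (2.94 and 2.8) were among the 5 largest rises in both genotypes. Cyp7b1 is an oxysterol hydroxylase that makes the ligand of the migration receptor Gpr183. Gm52008/Bcl11b is given by library below, with Prl5a1/Sox4, from the list of B cell factors, and Lrig3/Atp23, named for its HET difference.

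The desert Prl5a1/Sox4, beside Sox4, a transcription factor of lymphocyte progenitors, held 25 peaks at chr13:28345508-28884540, and all 25 rose in CC in both genotypes. Their sum stood at 162.7, 132.4, 165.3 and 116.4 CPM in HET CC, 192.0, 187.2, 185.1 and 194.7 in WT CC, 24.06, 18.94, 24.21 and 18.42 in HET CB and 28.98, 32.07, 34.69 and 34.92 in WT CB. The CC libraries all exceeded the CB libraries, and within each stage the HET libraries were all below the WT libraries. The log2 change of CC against CB was 2.75 ± 0.0972 in HET (± SE, adjusted p = 1.18e-18) and 2.54 ± 0.0985 in WT (8.87e-18). Of these peaks, 21 lay in the long non-coding gene 2610307P16Rik.

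The desert Gm52008/Bcl11b (chr12:107183203-107833444, 10 peaks) lies beside Bcl11b, a factor of T cell commitment and itself one of the T cell markers used above. Its sum was 33.02, 24.25, 32.1 and 25.43 CPM in HET CC and 44.83, 46.73, 39.17 and 34.37 in WT CC, against 3.691, 3.089, 3.968 and 3.715 in HET CB and 4.117, 5.574, 4.526 and 5.033 in WT CB. Again no CC library overlapped a CB library, and all 10 peaks rose in both genotypes (log2 2.98 in HET, adjusted p = 2.28e-20, and 3.1 in WT, 2.63e-20). T cell marker loci were higher in the same libraries, as given above.

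Lrig3/Atp23 (chr10:126330479-126531855) held 12 peaks, all of which rose. The sum was 104.8, 76.16, 101.8 and 80.31 CPM in HET CC and 142.1, 150.4, 133.0 and 160.6 in WT CC, against 18.8, 14.97, 16.32 and 14.56 in HET CB and 22.75, 22.84, 24.12 and 25.03 in WT CB. No pair of these 4 groups overlapped, and the rise was 2.49 in HET and 2.63 in WT on the log2 scale. The 13 peaks of 4933412E24Rik/Lratd2, which include the Gm41331 promoter printed above, also all rose, and their sum stood at 53.78 ± 10.8 CPM in HET CC, 75.65 ± 6.39 in WT CC, 7.017 ± 1.24 in HET CB and 10.9 ± 1.81 in WT CB.

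Among the deserts that lost accessibility in CC, Bcl6/Lpp (chr16:24054230-24342128, 45 peaks), beside Bcl6, the repressor on which germinal center B cells depend, stood at 346.4, 436.4, 386.1 and 432.2 CPM in HET CC, 364.3, 298.8, 308.1 and 329.8 in WT CC, 636.3, 611.6, 642.9 and 610.3 in HET CB and 666.9, 654.7, 666.6 and 649.7 in WT CB. Every CC library was below every CB library, while HET and WT CC libraries overlapped. The sum fell by 0.64 ± 0.0518 in HET (adjusted p = 3.43e-12), with 5 peaks higher and 32 lower, and by 1.02 ± 0.0549 in WT (2.55e-16), with 4 higher and 31 lower.

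Bcl2l11/Spdye4c (chr2:128272707-128499998, 40 peaks), beside Bcl2l11, which encodes the death activator BIM, averaged 329.9 ± 39.8 CPM in HET CC, 277.4 ± 18.9 in WT CC, 534.3 ± 12.1 in HET CB and 503.4 ± 5.26 in WT CB. It fell by 0.69 in HET and 0.86 in WT, and 28 and 25 of its peaks fell. Of its peaks, 31 lie in Morrbid, a long non-coding gene known in myeloid cells as a regulator of Bcl2l11. Among deserts above the median level, Gm4606/Cysltr2, beside a leukotriene receptor gene (-1.81 in HET and -2.0 in WT), and Plxdc2/Nebl (-1.53 and -1.82) were among the 5 largest falls in both genotypes. The other three in HET were Foxo6/Scmh1 (-1.32 in HET), Ppp2r5a/Dtl (-1.26) and Zc3h12a/Grik3 (-1.25), and in WT Slc22a23/Pxdc1 (-1.93 in WT), Tenm2/Mat2b (-1.72) and Hdac4/Ndufa10 (-1.71). The Gm4606/Cysltr2 sum of 5 peaks was 22.73 ± 4.86 CPM in HET CC, 19.12 ± 3.89 in WT CC, 80.01 ± 5.2 in HET CB and 76.69 ± 7.95 in WT CB. Germinal center marker loci summed lower in the same CC libraries, with the exception of the Bcl6 locus itself, whose own peaks had the higher mean in CC, as given above.

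Most large deserts held peaks called in both directions, though often mainly in one. Of the 219 deserts with at least 10 peaks, 156 in HET and 151 in WT had peaks called both higher and lower in CC, 53 and 55 had higher calls alone, and 10 and 13 had lower calls alone. At least 3 in 4 calls were higher in 106 of the 219 in HET and 103 in WT, and at least 3 in 4 were lower in 30 and 38. Myc/Gsdmc, the stretch beyond the growth regulator Myc, held 68 peaks, 26 higher and 19 lower in HET and 24 and 19 in WT, and its sum stood at a log2 change of -0.06 in HET (adjusted p = 0.157) and fell by 0.11 in WT (0.0227). On the other side of Myc, A1bg/Myc had 20 of 23 peaks higher and 0 lower in HET and 18 and 0 in WT (0.71 and 0.9 for the sum). Eea1/Btg1, with 69 peaks beside Btg1, an antiproliferative gene of B cells, rose by 0.40 in HET and 0.52 in WT. 4930519L02Rik/Lmo4, with 49 peaks beside the LIM adaptor gene Lmo4, fell by 0.77 in HET and 0.82 in WT.

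**Figure D4:**
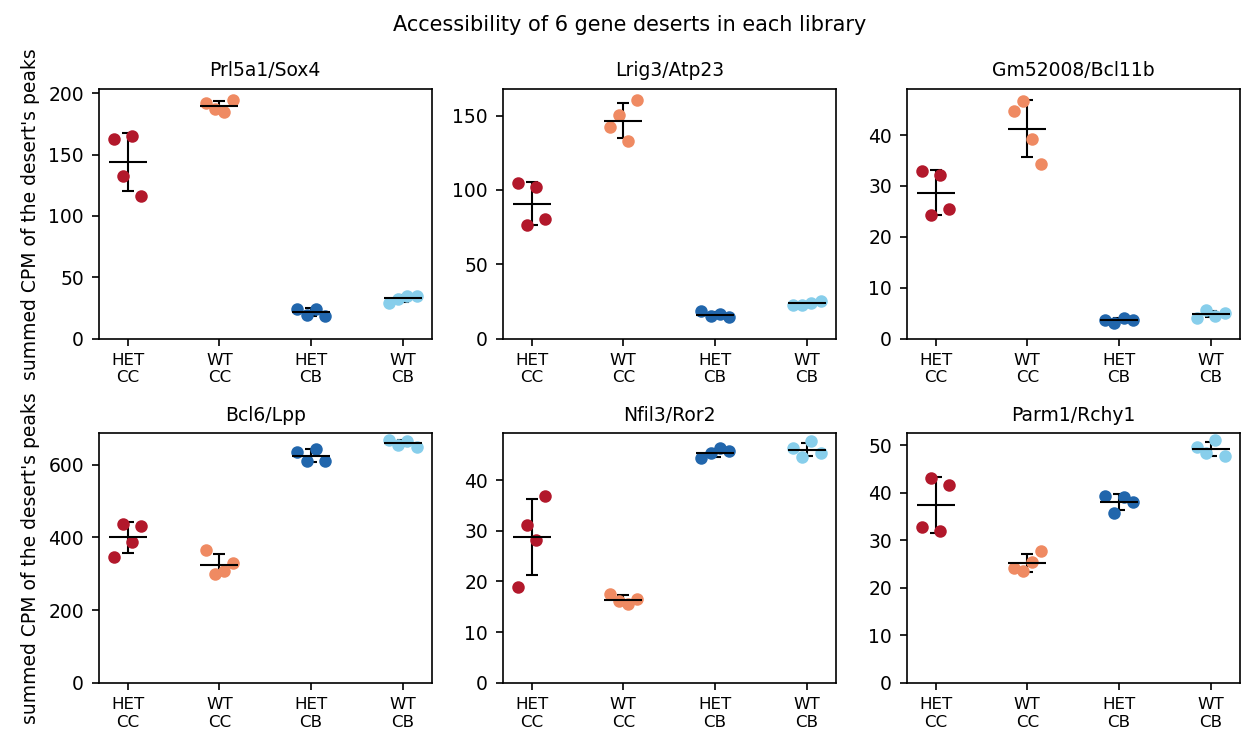
Summed accessibility of 6 deserts (y axes, CPM) in each library, for HET CC, WT CC, HET CB and WT CB from left to right; points are libraries and bars mean ± SD of 4. Prl5a1/Sox4, Lrig3/Atp23 and Gm52008/Bcl11b are higher in CC, Bcl6/Lpp is lower in CC, and Nfil3/Ror2 and Parm1/Rchy1 differ by genotype within CC.

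Among non-coding genes, chosen after values were seen, some held peaks that nearly all moved one way. All 21 peaks of 2610307P16Rik rose in both genotypes, with median log2 changes of 2.77 in HET and 2.72 in WT. In the heavy chain locus Igh, 26 of 28 peaks rose in both genotypes (medians 2.30 and 2.19), and their sum was 77.95 CPM in HET CC, 96.28 in WT CC, 23.74 in HET CB and 26.59 in WT CB. Peaks in antigen receptor loci can share reads between near-identical gene segments, and the sources used here do not say how such reads were counted. In Morrbid 2 of 31 peaks rose and 23 fell in HET, and 2 rose and 22 fell in WT. In Lncpint, a long non-coding gene beside Klf14 and Mkln1, 1 of 37 rose and 22 fell in HET, and 5 rose and 24 fell in WT. In Gm31718, between Irf2bp2 and Tomm20, 0 of 27 rose and 20 fell in HET, and 0 rose and 22 fell in WT. Pvt1, downstream of Myc, was mixed, with 5 of 26 higher and 10 lower in HET and 7 and 9 in WT.

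Deserts were grouped by lists of flanking genes. Of 30 deserts beside 24 B cell and germinal center factors, 17 rose and 6 fell in HET and 17 rose and 9 fell in WT, with median log2 changes of 0.312 and 0.285, where all 1262 deserts had medians of 0.449 and 0.382. Those that fell include Bcl6/Lpp and Irf8/Foxf1 (-0.36 in HET and -0.59 in WT), beside Irf8, a factor of B cell and myeloid identity. Those that rose include Prdm1/Prep, beside the plasma cell regulator Prdm1 (0.61 and 0.56), Ebf1/Clint1, beside the B lineage factor Ebf1 (0.8 and 0.74), and Myb/Hbs1l (1.95 and 1.83). For the lists that follow, the share of all deserts called was 55.1% higher and 19.1% lower in HET and 50.2% and 22.3% in WT. Of 8 deserts beside T and NK lineage genes, 6 rose and 1 fell in each genotype (medians 0.566 in HET and 0.818 in WT). Besides Gm52008/Bcl11b these were led by LOC115486419/Eomes (2.79 and 2.81), beside Eomes, a T-box factor of cytotoxic cells, and Celf2/Gata3 (1.6 and 1.72), beside the T helper factor Gata3. T cell marker loci were higher in the same CC libraries. Of 9 deserts beside positioning and costimulatory receptors, 2 rose and 3 fell in HET and 2 rose and 4 fell in WT. Cxcr4/Thsd7b, beside Cxcr4, the receptor that draws centroblasts to the dark zone, fell by 0.39 in HET and by 0.39 in WT, and Dars/Cxcr4 on its other side fell by 0.75 and 0.95. Of 6 deserts beside BAF subunit genes, 3 rose in HET and 4 in WT, as Dmrt2/Smarca2, beside the alternative ATPase gene Smarca2, did by 0.81 and 0.84. Of 11 beside survival and signaling genes, 7 rose and 4 fell in each genotype (63.6% and 36.4%), as Dusp6/Csl, beside the MAP kinase phosphatase gene Dusp6, rose by 0.8 in HET and 0.95 in WT.

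Of the 5 peaks farthest from any coding gene, 3 rose. Peak_22569 and peak_22568, in Pcdh7/G6pd2, lay 1812.1 and 1712.6 kb away and rose by 2.51 and 3.44 in HET and by 2.76 and 3.43 in WT. Peak_13162, 1632.8 kb from a coding gene in Pabpc4l/Pcdh18, rose by 3.85 in HET and 3.2 in WT. The other two, in Igk, passed the test in neither genotype. The most accessible gene-desert peaks included peak_54 in Pcmtd1/Sntg1, with means of 111.3 CPM in HET CC, 134.1 in WT CC, 54.12 in HET CB and 58.76 in WT CB, and peak_68135 in Wnt7b/Ppara, with 101.2, 111.3, 72.27 and 70.24. Both rose in CC, by 1.04 and 0.49 in HET and by 1.19 and 0.66 in WT. The largest rise in HET above the median level was at peak_18447 in Tle1/Aldoart1, with means of 12.13 CPM in HET CC, 11.12 in WT CC, 0.4715 in HET CB and 0.8787 in WT CB (log2 4.65 in HET and 3.66 in WT).

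In CB, HET libraries were called lower than WT libraries at 29 gene-desert peaks (0.391%) and higher at 0, where 0.127% of all peaks were lower and 0.00243% higher (edgeR quasi-likelihood test). At an unadjusted p below 0.05, 914 were lower and 62 higher. That made 976 of the 7415 gene-desert peaks, against 6494 of all 82188 peaks in either direction. DESeq2 called 125 lower and 1 higher, and its share over all peaks is not given here. The median log2 change was -0.087, against -0.01 over all peaks, and 29.6% of gene-desert peaks were above 0, against 46.6% of all peaks, 60.7% of gene-end peaks, 45.3% of peaks inside genes and 42.9% of other peaks within 50 kb of a gene. The median was -0.062 at 50 to 100 kb from a coding gene, -0.097 at 100 to 200 kb, -0.133 at 200 to 500 kb and -0.157 beyond 500 kb. These distance classes were not compared at like accessibility, with which the median also differed. By quintile of mean CPM from lowest to highest, the gene-desert median was -0.172, -0.117, -0.076, -0.04 and -0.024. Over all peaks it was -0.071, -0.038, -0.015, 0.0 and 0.014 in the same order. The 29 log2 changes had a median of -0.82, and at 28 of the 29 the HET and WT libraries did not overlap, by the same values that gave the calls. Sums of some marker lists were also lower in every HET CB library than in every WT CB library, at 57.32 to 60.73 against 61.23 to 66.82 CPM for T cells, 32.59 to 36.83 against 38.33 to 40.77 for myeloid cells, 35.76 to 42.22 against 43.61 to 46.6 for stromal cells and 1034.9 to 1042.1 against 1075 to 1146.5 for B cells. The HET mean was higher, however, at 1 of the 7 T cell loci and at 2 of the 3 stromal loci. These 2 were Col1a2 (0.7372 against 0.691 CPM) and Pdgfrb (9.013 against 8.072), while Pecam1 was lower (29.07 against 36.25). Germinal center loci, the NK cell marker Nkg7 and the megakaryocyte marker Itga2b overlapped between HET CB and WT CB. All 29 peaks were also below 0 in CC, where 8 were called lower. Of the 29, 25 in HET and 24 in WT were called higher in CC than in CB, but these comparisons share CB libraries with the HET effect in CB. The count was small and depended on every library: leaving out any of the 8 CB libraries in turn left 13, 7, 8 and 5 calls without HET CB replicates 1 to 4 and 12, 10, 10 and 9 without WT CB replicates 1 to 4. A fit of the 2 CB groups alone called 153 lower and 8 higher, and after all libraries were thinned to the depth of the smallest, 0 gene-desert peaks were called.

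Of the 29, the largest change was at peak_27101 (chr6:31804410-31804910), 240.7 kb from a coding gene in Podxl/1700012A03Rik, which is named after its values were seen. It stood at 0.344, 0.5277, 0.7551 and 0.9312 CPM in HET CC, 2.779, 5.888, 3.664 and 2.736 in WT CC, 0.6401, 0.2528, 0.6178 and 0.7973 in HET CB and 1.823, 2.761, 1.905 and 3.077 in WT CB. Every HET library was below every WT library in both stages. The log2 change was -2.54 ± 0.475 in CC (adjusted p = 0.00306) and -2.04 ± 0.279 in CB (adjusted p = 7.7e-05).

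Summed over deserts, 63 (4.99%) were lower in HET CB than in WT CB and 0 higher, against 0.943% and 0.0434% of all genes and deserts. At an unadjusted p below 0.05 by the edgeR test, 275 were lower and 7 higher. That made 282 of 1262 deserts, against 1685 of all 16118 genes and deserts in either direction. By DESeq2, 106 were lower and 0 higher, and its share over all genes and deserts is not given here. Leaving out 1 CB library from the edgeR fit gave 20 to 52 deserts, and the counts were 29, 27 and 20 without HET CB replicates 2, 3 and 4, 30 and 27 without WT CB replicates 2 and 4, and 42 to 52 without the other three. After thinning, 5 deserts were called. Of the 63, 18 were also lower in CC and 1 was higher. Prl5a1/Sox4 was lower by 0.61 ± 0.093 in CB (adjusted p = 0.000795) and Lrig3/Atp23 by 0.56 ± 0.0831 (0.000346), with the library values given above. Spry2/Trim52, beside Spry2, an inhibitor of receptor tyrosine kinase signaling, had 3.933 ± 0.278 CPM in HET CB and 6.205 ± 0.55 in WT CB (-0.66, 0.00284, and 0.603 after thinning). Sdc1/Laptm4a, beside the plasma cell surface gene Sdc1, had 3.454 ± 0.489 and 5.072 ± 0.232 (-0.56, 0.0191).

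Some large deserts were lower in HET CB as a sum without any peak called singly. The 49 peaks of Cd83/Jarid2, beside Cd83, a surface protein of light zone cells, summed to 323.5, 321.0, 317.6 and 322.3 CPM in HET CB and 383.6, 355.2, 383.5 and 361.1 in WT CB. All HET libraries were below all WT libraries (-0.21 ± 0.0379, adjusted p = 0.00195, and 0.194 after thinning), and 0 of the 49 peaks were called by the edgeR test. In CC the desert stood at 324.5 ± 20.4 CPM in HET and 336.6 ± 6.06 in WT (-0.05, adjusted p = 0.505). Prdm1/Prep was lower by 0.23 in HET CB (0.0131, but 0.603 after thinning, 0.12 without HET CB replicate 2 and 0.0918 without HET CB replicate 4). Ebf1/Clint1 was lower by 0.29 (0.0242), a call lost after thinning (0.603) and in 5 of the 8 fits with 1 CB library left out, with an adjusted p of up to 0.148.

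In CC, HET and WT libraries differed at gene-desert peaks in both directions. HET was higher at 86 peaks (1.16%) and lower at 107 (1.44%), against 1.08% and 0.979% of all peaks. With all levels of accessibility pooled, 2.6% of gene-desert peaks and 2.06% of all peaks were called in either direction. By quintile of mean CPM from lowest to highest, 0.835%, 1.06%, 2.75%, 5.43% and 9.17% of gene-desert peaks were called in either direction, against 0.608%, 0.882%, 1.55%, 3.05% and 4.22% of all peaks, a difference that was not tested. With total counts in place of the trimmed mean of M-values the split was 111 higher and 77 lower, so which direction held more calls depends on the scaling. At 56 of the 86 and 74 of the 107 the libraries did not overlap, by the same values that gave the calls, and the median changes were 0.86 and -0.69. Of the 86 peaks higher in HET CC, 82 were called lower in CC than in CB in WT, and of the 107 lower ones, 104 were called higher. These comparisons share the WT CC libraries. Single HET CC libraries moved the count strongly, to 281 calls without replicate 1, 47 without replicate 2, 318 without replicate 3 and 44 without replicate 4, and WT CC replicate 2 to 83. Without WT CC replicates 1, 3 and 4 there were 127, 150 and 145 calls, and with the 2 CC groups alone there were 37, or 111 after thinning.

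Among deserts, 39 (3.09%) were higher and 83 (6.58%) lower in HET CC, against 3.37% and 3.49% of all genes and deserts. Without a single HET CC library the sum of both was 163, 43, 164 and 38 for replicates 1 to 4, and without WT CC replicate 2 it was 71. Lrig3/Atp23 was lower by 0.70 ± 0.0886 (adjusted p = 4.55e-05), and no library left out ended that call. Prl5a1/Sox4 was lower by 0.40 ± 0.0977 (0.0148, and 0.0503 without HET CC replicate 2). Gm52008/Bcl11b was lower by 0.53 ± 0.134 (0.0144, and 0.0735, 0.0627 and 0.0585 without HET CC replicates 2 and 4 and WT CC replicate 2). Sdc1/Laptm4a had 18.9 ± 1.84 CPM in HET CC and 29.94 ± 2.6 in WT CC (-0.66, 0.00369), and Pcdh9/Spertl 33.8 ± 7.56 and 53.74 ± 4.52 (-0.68, 0.000725). In these same libraries T cell marker loci summed to 126.8 to 178.9 CPM in HET CC and 182.8 to 233.1 in WT CC, with a higher HET mean at 1 of the 7 loci. Of the 8 deserts beside T and NK lineage genes, 3 were lower in HET CC and 0 higher, and of the 30 beside B cell and germinal center factors 4 were lower and 1 higher.

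Among the deserts that lost accessibility in CC, some were higher in HET CC than in WT CC. Bcl6/Lpp was higher in HET CC by 0.30 ± 0.0571 (adjusted p = 0.00227), with 6 of its 45 peaks called higher. Bcl2l11/Spdye4c was higher by 0.25 (0.00749, and 0.0504 without HET CC replicate 4). Nfil3/Ror2 (chr13:53051328-53053334, 3 peaks), beside Nfil3, a basic leucine zipper factor of lymphocytes, stood at 18.87, 31.2, 28.23 and 36.84 CPM in HET CC, 17.55, 16.14, 15.45 and 16.52 in WT CC, 44.35, 45.43, 46.25 and 45.71 in HET CB and 46.26, 44.62, 47.64 and 45.41 in WT CB. All HET CC libraries were above all WT CC libraries, replicate 1 narrowly, and the CB libraries of both genotypes overlapped. The difference was 0.82 ± 0.143 in CC (0.000816). Germinal center marker loci summed to 543.1 to 645.7 CPM in HET CC and 468.7 to 531.1 in WT CC, with a higher HET mean at 6 of the 7 loci. The exception was the Bcl6 locus itself, at means of 110 CPM in HET CC and 115.5 in WT CC.

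At single peaks, peak_66895 (chr15:62189063-62189563), in Pvt1, stood at 5.848, 3.826, 6.419 and 6.674 CPM in HET CC and 2.223, 1.766, 1.691 and 1.642 in WT CC, with no overlap (log2 1.61 ± 0.313, adjusted p = 0.00419), and at means of 7.292 in HET CB and 6.979 in WT CB. Peak_78988 (chr19:33212291-33212791), in Rnls, which this RefSeq table lists as a transcribed pseudogene, stood at 7.224, 6.86, 7.363 and 8.536 in HET CC and 3.057, 2.944, 2.819 and 3.557 in WT CC (1.27 ± 0.241, 0.00368). At both, every HET CC library lay above every WT CC library. In the other direction, peak_72040 (chr17:4881398-4881898), in Nox3/Arid1b beside the BAF subunit gene Arid1b, had 3.956, 1.847, 3.209 and 2.949 CPM in HET CC and 8.337, 7.36, 7.892 and 6.294 in WT CC (-1.35 ± 0.267, 0.00475), again without overlap. Peak_27081, in Lncpint, had 40.76, 35.49, 40.02 and 33.52 in HET CC and 56.69, 50.93, 52.14 and 48.16 in WT CC (-0.48 ± 0.0919, 0.00375).

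Whether the HET effect differed between the stages was tested as an interaction, the effect in CC minus that in CB. It was called at 21 gene-desert peaks above 0 (0.283%) and 2 below (0.027%), against 0.128% and 0.0316% of all peaks. Of the 21, 20 were also called higher in HET CC than in WT CC, all 21 were called lower in CC than in CB in WT and 16 in HET, and 4 lay in Bcl6/Lpp. These comparisons share libraries with the interaction. The count was 1 without HET CC replicate 4, 4 without HET CC replicate 2 and 2 without WT CC replicate 2, and 66 and 57 without HET CC replicates 1 and 3. It was 10 to 16 without each of the 8 CB libraries, 13 and 12 without WT CC replicates 1 and 3, and 26 without WT CC replicate 4, and after thinning it was 0. In CB, 44 of the 86 peaks called higher in HET CC lay above 0 and 94 of the 107 called lower lay below 0, where 29.6% of all gene-desert peaks lay above 0. Over the 7415 peaks the HET effects in CC and in CB, which share no library, had a Pearson correlation of 0.29, given as a description.

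Among deserts, 11 (0.872%) had an interaction above 0 and 0 below, against 0.378% and 0.0434% of all genes and deserts (edgeR). At an unadjusted p below 0.05 by the same test, 138 were above and 45 below 0. That made 183 of 1262 deserts, against 2077 of all 16118 genes and deserts in either direction. DESeq2 called 32 above and 3 below 0, and its share over all genes and deserts is not given here. The edgeR calls numbered 3 without HET CC replicate 2, 7 without HET CC replicate 4, 33 and 29 without HET CC replicates 1 and 3, and 8 to 15 without each other library, and 4 after thinning. Parm1/Rchy1 (chr5:91689749-91814786, 7 peaks) had the largest interaction of the 11, and no library left out ended the call. It stood at 32.85, 43.13, 31.92 and 41.62 CPM in HET CC, 24.04, 23.51, 25.38 and 27.71 in WT CC, 39.38, 35.69, 38.98 and 38.08 in HET CB and 49.51, 48.37, 51.09 and 47.65 in WT CB. HET libraries were all above WT libraries in CC and all below them in CB. The HET effect was 0.58 ± 0.109 in CC (adjusted p = 0.00164) and -0.37 ± 0.0646 in CB (0.0013), and the interaction was 0.95 ± 0.126 (8.36e-05). The desert fell in CC by 0.97 in WT (5e-11), whereas the change in HET was -0.01 (0.908). For Bcl6/Lpp the interaction was 0.38 ± 0.0754 (0.0148) and for Nfil3/Ror2 0.84 ± 0.161 (0.0101, and 0.0758 after thinning). Prl5a1/Sox4, lower in HET in both stages, had an interaction of 0.21 that did not pass the test (0.534).

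**Figure D5:**
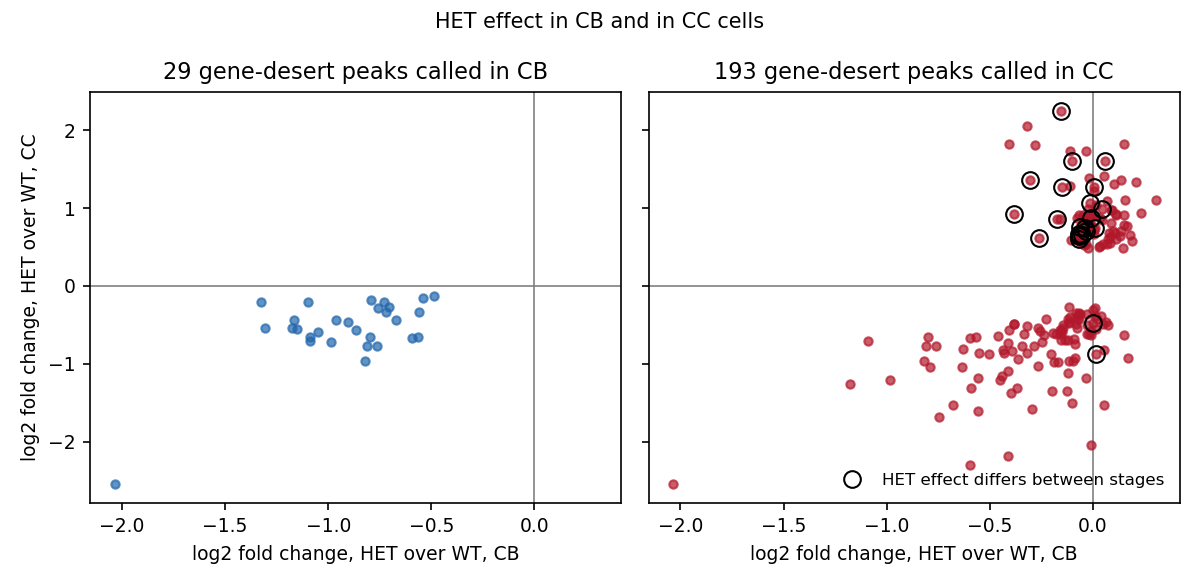
Log2 change of HET against WT in CB (x axis) and in CC (y axis) for the 29 gene-desert peaks called in CB (left) and the 193 called in CC (right); rings mark peaks whose HET effect differs between the stages. All 29 peaks called in CB lie below 0 on both axes, and of the peaks called in CC, 44 of the 86 higher ones lie above 0 and 94 of the 107 lower ones below 0 on the CB axis. Of all gene-desert peaks, most of them not drawn, 29.6% have a value above 0 in CB.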

How the data were processed

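The deposited table held raw counts per peak for 82188 peaks of 501 bp in 16 libraries, and per the submitters' processing notes FastQC, BWA, deepTools, R 4.2.1 and the build mm10 were used. Peak calling and counting by the authors are not given in the sources used here. Depth was 3494356 to 51011923 counts per library, and counts of PCR-amplified fragments give counting error only. Distances were taken from peak middles to the spans of 21631 protein-coding genes in RefSeq for GRCm38.p6, which mm10 denotes. Peaks over 50 kb away were also summed per desert, and other peaks per nearest gene, which gave 16118 units. Peaks and units were tested with edgeR 4.0.16 (limma 3.58.1, R 4.3.3): trimmed mean of M-values, filterByExpr, which removed 0 peaks, and a robust quasi-likelihood fit with 1 coefficient for each of the 4 groups. Adjusted p-values are Benjamini-Hochberg over all peaks or all units, and below 0.05 is called a change. CPM are counts over the scaled library totals. The scripts were tested on simulated data. The members and lists were chosen with earlier results of these data known. Named peaks and deserts are, per comparison, the 5 largest calls in each direction above the median level of 4.153 CPM (deserts 10.89) with no overlap of libraries, the 10 deserts with most peaks, up to 4 deserts per list of flanking genes, and the farthest and most accessible peaks; others are named as chosen after values were seen. Some items that this rule selects are not reported here. Alternatives were other scalings, filters, DESeq2 1.42.0, thinning to the smallest library, fits of 2 groups, a replicate block, other distance limits and each library left out. The groups share replicate numbers, and the fit has no block for them. Deviations of same-numbered CC and CB libraries of a genotype correlated weakly over all peaks, from 0.029 to 0.074. Such small correlations, all positive, do not exclude that the numbers pair libraries.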

Additional observations from a re-analysis of the deposited data

Results flagged for a closer look

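The HET effect differed between CC and CB, by the interaction test (edgeR quasi-likelihood, adjusted over all peaks or all units), at the following deserts and peaks, given as the effect in CC minus that in CB on the log2 scale. It was 0.38 for Bcl6/Lpp, 0.95 for Parm1/Rchy1 and 0.84 for Nfil3/Ror2, and leaving out any of the 16 libraries in turn ended none of these 3 calls. It was 0.64 for Kdm4c/Dmac1, beside a histone demethylase gene, a call lost without HET CC replicate 2, WT CC replicate 1 or WT CC replicate 2. It was 0.72 for Tenm2/Mat2b, lost in 7 of the 16 fits with 1 library left out, and 0.54 for Smad1/Gm51579, lost in 10. Among peaks it was 1.55 for peak_66895 in Pvt1, 1.67 for peak_69984 in Bcl6/Lpp, 1.27 for peak_78988 in Rnls and 1.42 for peak_50410 in Vrk2/Ccdc85a, and these calls were lost in 8, 4, 3 and 3 of the 16 fits. It was -0.89 for peak_15349 in Olfm3/S1pr1, beside S1pr1, a receptor for exit into blood and lymph, and -0.48 for peak_27081 in Lncpint, and these were lost in 13 and 12 of the 16.

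In 2 of 168 groups of 4 libraries examined, 1 library stood apart from the other three, where chance gives about 1 in 20. Plxdc2/Nebl had 24.6, 25.04, 25.46 and 35.76 CPM in HET CC, with replicate 4 apart. The Gm26579 promoter peak, peak_48783, had 1.72, 1.979, 1.699 and 4.035 CPM in HET CC, again with replicate 4 apart.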

How the results depend on the processing

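Counting error limits weak peaks most, since the median gene-desert peak held 17 to 18 counts in WT CC libraries. Stage cannot be told apart from depth, nor can genotype within CC. No call of a named peak or desert and no difference in share changed sign under any alternative, but the split of peaks called for HET against WT in CC was 86 higher and 107 lower, against 111 and 77 with total counts. Called peaks for HET against WT in CB numbered 126 with DESeq2, 161 with the 2 groups alone, 0 after thinning to the smallest library, 10 with the replicate block and 5 among peaks over 50 kb from any gene. In CC they numbered 454 with DESeq2, 37 with the 2 groups alone, 111 after thinning, 114 at a limit of 100 kb and 39 away from any gene. Calls for CC against CB in WT numbered 7689 at a limit of 25 kb, 2782 at 100 kb and 1019 away from any gene, and in HET 3374 after thinning, 7959 at 25 kb, 2881 at 100 kb and 1058 away from any gene. The limits change how many peaks are counted. Interaction calls numbered 37 with total counts, 126 with DESeq2, 0 after thinning, 12 with the replicate block, 5 with a block within genotype, 15 at 100 kb and 5 away from any gene. Deserts called for HET against WT numbered 106 with DESeq2, 132 with the 2 groups alone and 5 after thinning in CB, 60 with the 2 groups alone in CC, and 35 with DESeq2 and 4 after thinning for the interaction. Other causes of these changes were not tested.

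The share of counts at limits of 25 kb, 100 kb and away from any gene was 9.057%, 2.774% and 0.9492% in HET CC, 9.175%, 2.883% and 0.9899% in WT CC, 8.616%, 2.444% and 0.7858% in HET CB, and 8.881%, 2.565% and 0.8351% in WT CB. Away from any gene the difference was 0.163 points for CC against CB in HET, 0.155 in WT and -0.049 for HET against WT in CB.

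With 1 library left out, called peaks ranged from 5 to 13 for HET against WT in CB, 44 to 318 in CC, 4875 to 5064 for CC against CB in HET, 4750 to 4910 in WT and 1 to 66 for the interaction. Called deserts ranged from 20 to 52, 38 to 164, 891 to 932, 864 to 896 and 3 to 33 in the same order. The mean share ranged from 5.407% to 5.476% in HET CC, 5.523% to 5.599% in WT CC, 4.985% to 5.068% in HET CB and 5.182% to 5.275% in WT CB. Its difference ranged from 0.371 to 0.454 points for CC against CB in HET, 0.282 to 0.376 in WT, -0.16 to -0.081 for HET against WT in CC and -0.245 to -0.149 in CB.

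Replicate numbers were not used to pair the libraries in the main fit, so the replicate block is given only here. The weak correlations of same-numbered libraries do not exclude such a pairing. Deviations of the libraries followed odd and even numbers in some pairs of groups. Over all peaks, correlations between HET CC and HET CB were 0.0287 to 0.0736 within odd or within even numbers and -0.0668 to -0.037 across them. Between HET CB and WT CB they were -0.12 to -0.0966 within and 0.0969 to 0.119 across. Between HET CC and WT CC no such split was seen, with -0.0347 to 0.0184 within and -0.0123 to 0.0312 across. The labels name no batch, and what this pattern reflects was not tested. Leaving out antigen receptor loci or chromosomes X and Y, alternatives chosen after seeing the data, kept every count within 1.5 times.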

Other observations

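In Firre, a long non-coding gene on chromosome X whose 20 peaks count among the gene-desert peaks, libraries of one group differed widely. The sum was 181.5, 77.05, 162.7 and 67.51 CPM in HET CC, 175.9, 168.1, 150.2 and 127 in WT CC, 127.2, 81.7, 116 and 73.1 in HET CB and 110.4, 74.47, 116 and 74.41 in WT CB. In HET, 2 of its peaks were called higher and 2 lower in CC than in CB, and in WT 10 higher and 0 lower. Replicates 1 and 3 were above replicates 2 and 4 in HET CC, HET CB and WT CB. Firre was chosen after its values were seen.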
